A study of Mus musculus with 96 samples.

Results

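The replication-dependent histone genes described here are 56 protein-coding mouse genes, out of 22422 genes with counts. They were chosen by symbol (Hist1h to Hist4h, followed by H1a to H1e, H2a, H2b, H3 or H4) and by having at least 100 summed wild-type footprint counts in the coding sequence. Of 66 genes with such a symbol, 56 passed that floor: 5 linker histone H1 genes, 14 H2A, 16 H2B, 10 H3 and 11 H4 genes. Of these, 47 lie on chromosome 13, 6 on chromosome 3, 2 on chromosome 11 and 1 on chromosome 6.

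The libraries came from E11.5 mouse neural tubes of 2 genotypes on the C3HeB strain, mutant C3HeB/Eif3cXs-J/+ and wild type C3HeB. The mutant embryos carry the Xs-J allele over a wild-type one, and Eif3c codes for one of the eIF3 proteins, which help load the small ribosomal subunit onto mRNA. Each genotype has 3 pools, each taken from the dissociated neural tubes of 1 litter, and every pool was split into a ribosome footprint library (Ribo-seq) and a library of poly(A)-selected RNA. The labels do not say that the pools of a genotype are from separate litters, so the p-values reflect only how far these pools differ, which may be technical. Inner coding counts of the genes tested were 11303617 to 14834123 per mutant and 17270204 to 59173568 per wild-type footprint library, and 9565252 to 13095140 per mutant and 7193806 to 13126019 per wild-type RNA library. The Eif3c gene itself had 403, 355 and 379 footprint CPM (counts scaled to the size of the library) in the mutant pools, against 760, 740 and 743 CPM in the wild-type pools (log2 change −0.98 ± 0.07 SE, edgeR quasi-likelihood adjusted p = 0.00131). Its RNA stood at 296, 290 and 302 CPM in mutants and 518, 497 and 474 CPM in wild type (log2 −0.75 ± 0.06, edgeR adjusted p = 0.000615). All 20 neural tube markers listed were detected.

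Replication-dependent histone mRNAs are made in S phase, when new DNA has to be packaged. H2A, H2B, H3 and H4 form the core octamer of the nucleosome, and H1 binds the linker DNA outside it. These mRNAs are unusual in ending in a conserved stem-loop instead of a poly(A) tail. The stem-loop-binding protein SLBP attaches to it and takes part in the processing, translation and decay of the mRNA. Most of the genes sit in clusters and many code for identical or nearly identical proteins. In bulk samples such as these, fewer cells making a transcript and less of it per cell cannot be told apart.

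The stem-loop is shown because it is what sets these mRNAs apart from the poly(A) RNA that the RNA libraries capture. It was found in 35 of the 41 members whose GENCODE vM21 transcript model (mm10) has a 3′ UTR of at least 16 bases, at 21 to 54 bases after the stop codon (median 31). There were 6 variants, written 5′ to 3′ as DNA, with the loop in capitals and the stem in lower case.
Hist1h1c, as in each of the 3 H1, 6 of the 7 H2A, 8 of the 10 H2B and 3 of the 6 H3 members with a loop found: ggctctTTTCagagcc
Hist1h3c, as in Hist1h3e, Hist1h3f, Hist1h2bb and Hist1h2bk: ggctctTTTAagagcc
Hist2h2ac: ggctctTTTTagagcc
Hist1h4h, as in 5 of the 9 H4 members with a loop found: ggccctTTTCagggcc
Hist1h4j, as in Hist1h4b: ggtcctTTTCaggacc
Hist1h4i, as in Hist2h4: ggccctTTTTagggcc
The variants share the 3 thymines that open the loop, which the search required, and differ in the stem pairs and in the last loop base. No difference in footprints between the variants was tested.

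The start regions are shown because several comparisons turn on reads around the start codon and because gene copies share this sequence. Each is the sense strand of the GENCODE vM21 transcript, with the start codon in capitals.
Hist2h3b: agtcgcaaaaatATGgcccgtacgaagcag
Hist1h3d: ctttttcttatcATGgctcgtactaagcag
Hist1h3c: ctcctcccaagaATGgctcgtactaagcag
Hist1h4i: cttgtcttcatcATGtctggtcgtggcaaa
Hist1h2bc: ggaaatccgaagATGcctgagcctgcgaag
After the start codon Hist1h3d and Hist1h3c read alike in this window, while their leaders differ. Hist1h4i and Hist1h2bc show the H4 and H2B starts.

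The histone genes gave far more footprints than captured RNA. On the RPKM scale (counts scaled to library size and to the kilobases of inner coding sequence, which leaves out the first 15 and last 5 codons), the ratio of footprint to RNA level had a median of 99.6 over 56 members in mutants and 80.5 over 55 members in wild type. Hist2h2be, an H2B gene, was lowest in wild type with 1.27, and Hist1h4f was highest with 304. The median over all genes in wild type was 0.94 and their 90th percentile 1.69, and 54 members were above that percentile. Since the RNA was selected for poly(A) tails, this ratio is to the captured RNA. The members were chosen by a floor of 100 wild-type footprint counts, which also enter the wild-type ratio, and membership needed no RNA counts.

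**Figure D1:**
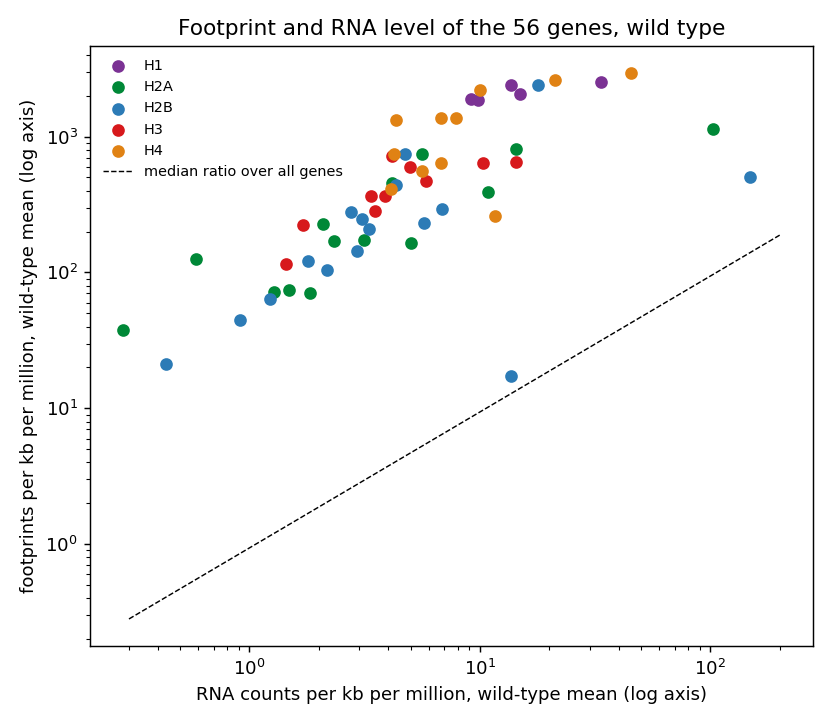
Wild-type level in footprints against wild-type level in poly(A)-selected RNA, both in RPKM of inner coding sequence on log axes, 1 point per histone gene with families in colour. Nearly all genes lie far above the level of equal values, with a median footprint-to-RNA ratio of 80.5.

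In wild-type footprints, the per-length levels of H1 genes were 1870 to 2516 RPKM, those of H2A 37.6 to 1133, of H2B 17.3 to 2374, of H3 115 to 723 and of H4 262 to 2922. The highest member of each family was Hist1h1e, Hist3h2a, Hist2h2bb, Hist1h3f and Hist2h4. Levels were not corrected for sequence shared between gene copies. In these genes 68.6%, 79.8%, 89.9%, 13.7% and 84.3% of inner 29-base windows are found in no other gene. That share was 1.45% in the lowest H2A gene, Hist1h2ah, but 78.5% in the lowest H2B gene, Hist2h2be. The part of shared sequence in the levels was not tested. The captured RNA of the histone genes was thin: summed wild-type RNA counts ran from 2 to 1359 per gene, with a median of 42. The highest RNA levels were those of Hist3h2ba (117 ± 4.92 RPKM in mutants, 149 ± 10.7 RPKM in wild type; SD, n = 3 pools each), Hist3h2a, Hist2h4 and Hist1h1e. In the 19 members whose annotated model runs at least 100 bases past the stem-loop, the median wild-type RNA level was 10.03 RPKM (2.32 to 149), and in the 16 with less it was 4.24 RPKM (0.91 to 10.3). Their median wild-type footprint levels were 653 and 446 RPKM.

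More footprints came from the inner coding sequences of histone genes in mutants. Footprints of 11 of the 56 members rose, none fell and 45 did not pass (edgeR quasi-likelihood test, Benjamini-Hochberg adjusted p under 0.05 over 13423 genes). Across all genes tested, 0.223% rose and 0.0298% fell. The members that rose were 4 H4, 4 H3, 2 H2A and 1 H2B gene. At an unadjusted p under 0.05, 31 members passed, all of them higher in mutants, against 3067 of all genes (55.4% of members and 22.8% of genes). The log2 change was above 0 for 50 members and below 0 for 6, with a median of 0.38 over the members and 0.01 over all genes tested, of which 52.4% were above 0. The members' median was 0.22 with a correction for GC content and 0.24 without mutant pool 3. The count of 11 depended on the libraries kept: leaving out mutant pools 1, 2 and 3 in turn gave 12, 29 and 6 genes, and leaving out wild-type pools 1, 2 and 3 in turn gave 5, 4 and 5. It was 27 with DESeq2, 17 with limma-voom, 20 without the filter on low counts and 6 with a correction for GC content.

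Every mutant pool was above every wild-type pool for 29 of 56 members, and none was the other way round; over all genes tested, 14.4% were separated upward in this way. By family these were 10 of 10 H3, 10 of 11 H4, 8 of 14 H2A, 1 of 16 H2B and 0 of 5 H1 genes. Median log2 changes were 0.69 for H3, 0.60 for H4, 0.34 for H2A, 0.31 for H1 (its 5 genes from 0.23 to 0.38) and 0.09 for H2B. This order depends on the coding part counted: with the whole coding sequence the medians were 0.28 for H3, 0.41 for H4, 0.27 for H2A, 0.35 for H1 and 0.35 for H2B. With a correction for GC content they were 0.47, 0.40, 0.10, 0.21 and −0.05 in the same order of families. Without mutant pool 3 they were 0.55 for H3, 0.49 for H4, 0.16 for H2A and 0.13 for H1, and the H2B median was near 0. Without wild-type pool 3 the medians of H1 and H2B were 0.21 and −0.03, and that of H2B was 0.17 when mutant pool 2 was left out, and 0.22 and 0.20 when wild-type pools 1 and 2 were left out in turn. The differences between families were not tested.

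**Figure D2:**
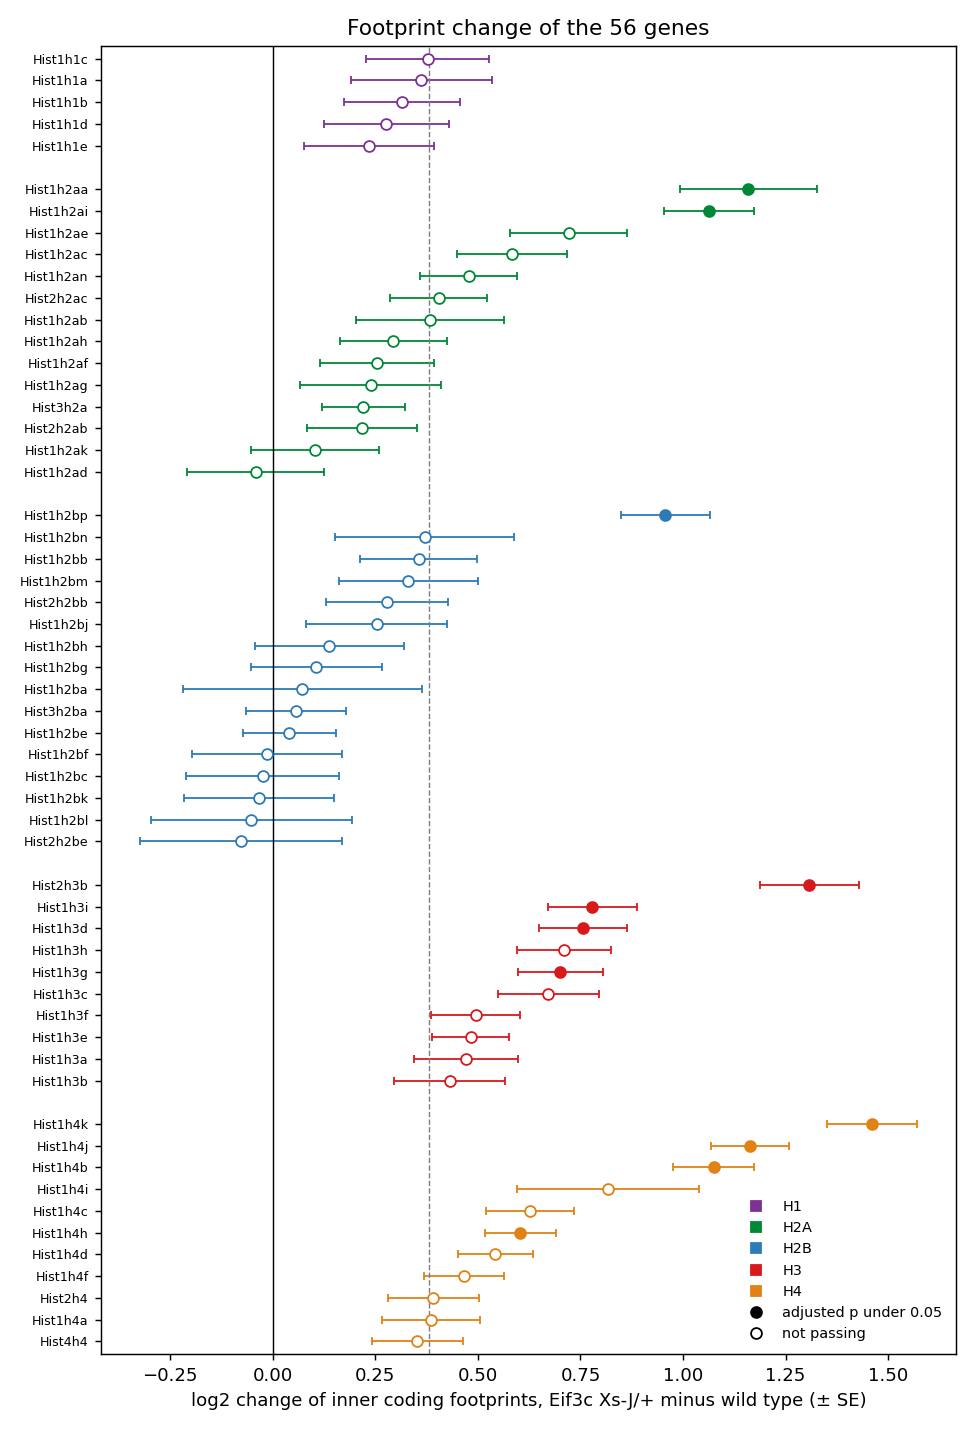
Log2 change in inner coding footprints, Eif3c Xs-J/+ minus wild type, for each of the 56 histone genes with its SE, ordered within families; filled points passed an adjusted p of 0.05 and the dashed line is the median over the genes, 0.38. H3 and H4 genes all lie above 0, while H2B genes gather around it.

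The H4 genes encode the core histone that pairs with H3, and 4 of the 11 rose. Hist1h4k (chromosome 13, 21750194 to 21750505, minus strand, mm10) had 235, 312 and 310 CPM in mutants, against 102, 109 and 101 CPM in wild type. Its change was the largest of the 56, at log2 1.46 ± 0.11 (edgeR adjusted p = 0.00131). The mutant pools did not overlap the wild-type pools. Hist1h4j (chromosome 13, 21735064 to 21735837, plus strand) had 313, 394 and 376 CPM in mutants and 163, 171 and 150 CPM in wild type, a log2 change of 1.16 ± 0.10 (edgeR adjusted p = 0.00214). Hist1h4b (chromosome 13, 23757013 to 23757409, plus strand) had 260, 286 and 340 CPM in mutants and 146, 141 and 134 CPM in wild type, a log2 change of 1.08 ± 0.10 (edgeR adjusted p = 0.00268). Hist1h4b and Hist1h4j carry the same variant stem-loop shown above, while the model of Hist1h4k has no 3′ UTR in which to look for one. These 3 genes kept their call in all 15 alternatives tried. Hist1h4h (chromosome 13, 23531050 to 23531519, plus strand) had 471, 568 and 531 CPM in mutants and 369, 330 and 334 CPM in wild type, a log2 change of 0.60 ± 0.09 (edgeR adjusted p = 0.0259). It kept its call in 7 of the 15, and its change was 0.30 over the whole coding sequence.

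The H4 genes of highest level did not pass, although their pools were separated. Hist2h4 had 932, 871 and 1096 CPM in mutants and 825, 741 and 644 CPM in wild type (log2 0.39 ± 0.11, edgeR adjusted p = 0.111). Hist1h4d had 881, 943 and 1053 CPM in mutants and 723, 644 and 609 CPM in wild type (log2 0.54 ± 0.09, edgeR adjusted p = 0.0521). Hist4h4, on chromosome 6, had 706, 622 and 802 CPM in mutants and 587, 596 and 486 CPM in wild type (log2 0.35 ± 0.11, edgeR adjusted p = 0.125). For each of them the lowest mutant pool was above the highest wild-type pool. Among the others, Hist1h4i had the largest change, with 123, 132 and 92.2 CPM in mutants and 73.9, 81.5 and 42.3 CPM in wild type (log2 0.82 ± 0.22, edgeR adjusted p = 0.102). Hist1h4a was the H4 gene whose groups overlapped.

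The H3 genes encode the partner of H4, and 4 of the 10 rose. Hist2h3b (chromosome 3, 96268654 to 96269141, plus strand) had 94.3, 90.9 and 115 CPM in mutants and 44.3, 34.2 and 42.2 CPM in wild type (log2 1.31 ± 0.12, edgeR adjusted p = 0.00268). Only 8 of its inner 29-base windows, 2.11%, are found in no other gene, and over its whole coding sequence the change was 0.26. Hist1h3i (chromosome 13, 21782960 to 21783370, minus strand) had 152, 171 and 185 CPM in mutants and 111, 101 and 84.9 CPM in wild type (log2 0.78 ± 0.11, edgeR adjusted p = 0.0259). These values leave a clear gap between the genotypes for both genes.

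Hist1h3d (chromosome 13, 23575763 to 23577011, plus strand) had 194, 200 and 250 CPM in mutants and 137, 128 and 116 CPM in wild type (log2 0.76 ± 0.11, edgeR adjusted p = 0.0259). Hist1h3g (chromosome 13, 23535422 to 23535951, plus strand) had 256, 239 and 307 CPM in mutants and 180, 152 and 161 CPM in wild type (log2 0.70 ± 0.10, edgeR adjusted p = 0.0327). In both genes too the groups were apart. Over the whole coding sequence their changes were 0.30 and 0.33, and they kept their call in 8 and 7 of the 15 alternatives. Of the H3 genes of highest level, none passed: Hist1h3f had 1019 ± 149 RPKM in mutants and 723 ± 53.4 RPKM in wild type (SD, n = 3; log2 0.49 ± 0.11, edgeR adjusted p = 0.0794). Hist1h3e had 912 ± 84.7 and 653 ± 60.5 RPKM in mutants and wild type (log2 0.48 ± 0.09, edgeR adjusted p = 0.0684). Hist1h3c had 1016 ± 182 and 638 ± 57.7 RPKM in mutants and wild type (log2 0.67 ± 0.12, edgeR adjusted p = 0.0627). Their pools, too, did not overlap.

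**Figure D3:**
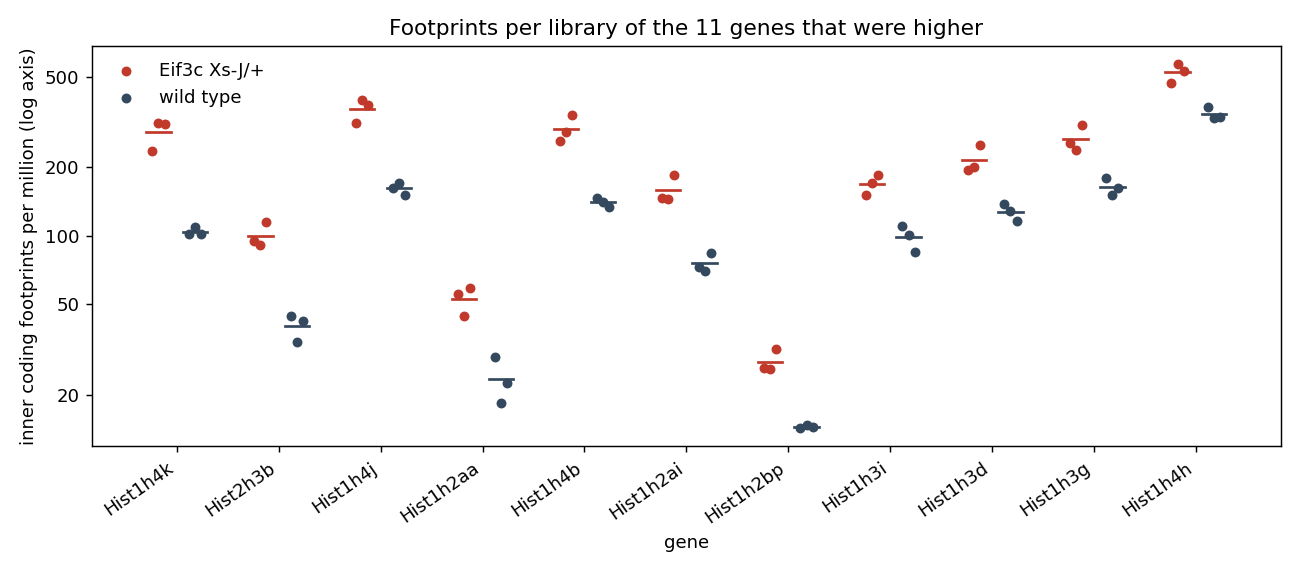
Footprint CPM in each pool on a log axis for the 11 histone genes whose inner coding footprints rose, mutant pools left of wild-type pools for each gene. In all 11 genes the 3 mutant pools lie above the 3 wild-type pools.

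H2A and H2B form the dimers that flank the H3-H4 core of the nucleosome. Among 14 H2A genes 2 rose. Hist1h2ai (chromosome 13, 21716422 to 21716814, plus strand) had 146, 144 and 184 CPM in mutants and 73.1, 70.0 and 83.8 CPM in wild type (log2 1.06 ± 0.11, edgeR adjusted p = 0.00567). Hist1h2aa (chromosome 13, 23934462 to 23934851, plus strand) had 55.4, 44.5 and 58.9 CPM in mutants and 29.4, 18.4 and 22.5 CPM in wild type (log2 1.16 ± 0.17, edgeR adjusted p = 0.0259). Hist1h2aa differs from the other genes that rose in that 86.7% of its inner windows are found in no other gene. The H2A genes of highest level overlapped or lay close: Hist3h2a had 1320 ± 186 RPKM in mutants and 1133 ± 58.6 RPKM in wild type (SD, n = 3; log2 0.22 ± 0.10, edgeR adjusted p = 0.227). Hist1h2ak (log2 0.10 ± 0.16) and Hist1h2ab (log2 0.38 ± 0.18) did not pass either, with edgeR adjusted p-values of 0.713 and 0.240.

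Of the 16 H2B genes, only Hist1h2bp rose. Located on chromosome 13, 21787508 to 21787976, plus strand, it had 26.3, 25.8 and 31.7 CPM in mutants and 14.2, 14.6 and 14.4 CPM in wild type (log2 0.96 ± 0.11, edgeR adjusted p = 0.0102). It was also the only H2B gene whose groups did not overlap, and 5 of the 16 had a change below 0. Hist2h2bb, the highest H2B gene, had 875, 782 and 1115 CPM in mutants and 864, 799 and 624 CPM in wild type (log2 0.28 ± 0.15, edgeR adjusted p = 0.288). Hist1h2bb had a log2 change of 0.36 ± 0.14 (edgeR adjusted p = 0.181) and Hist3h2ba one of 0.06 ± 0.12 (edgeR adjusted p = 0.800). With the whole coding sequence, where 9 members rose, the H2B genes Hist1h2bc (log2 1.20) and Hist1h2bg (0.76) passed and Hist1h2bp (0.52) did not. The calls of Hist1h2ai, Hist1h2aa, Hist1h2bp and Hist1h3i held in 13, 9, 10 and 9 of the 15 alternatives.

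None of the 5 H1 genes passed with edgeR, DESeq2 or limma-voom, 1 had an unadjusted edgeR p under 0.05, and the lowest edgeR adjusted p among them was 0.179. Hist1h1e, the highest, had 1681, 1420 and 2227 CPM in mutants and 1564, 1687 and 1278 CPM in wild type (log2 0.23 ± 0.16, edgeR adjusted p = 0.396). Hist1h1d had 1615, 1457 and 2173 CPM in mutants and 1545, 1575 and 1209 CPM in wild type (log2 0.28 ± 0.15, edgeR adjusted p = 0.301). Hist1h1c had 1408, 1329 and 1892 CPM in mutants and 1220, 1358 and 987 CPM in wild type (log2 0.38 ± 0.15, edgeR adjusted p = 0.179). In all 3 genes mutant pool 3 was the highest library and wild-type pool 3 the lowest, and the other pools lay among each other.

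Summed over the 56 genes, inner coding footprints came to 18578, 17587 and 23578 CPM in mutants and 16125, 15723 and 13120 CPM in wild type. These are means of 19914 ± 3211 and 14989 ± 1631 CPM (SD, n = 3 pools each; mutant first), a log2 difference of 0.41, which was 0.27 without mutant pool 3. The mutant pools were all higher, and mutant pool 3 was the highest in the total. The H4 sum was 5082, 5324 and 5959 CPM in mutants and 3901, 3667 and 3330 CPM in wild type (log2 0.59), and the H3 sum was 2190, 2179 and 2753 CPM in mutants and 1677, 1524 and 1453 CPM in wild type (log2 0.61). The sums of H1 (0.31), H2A (0.36) and H2B (0.23) overlapped between the genotypes, and without mutant pool 3 they differed by 0.12, 0.21 and 0.08. Without wild-type pool 3 those of H1 and H2B differed by 0.20 and 0.10. No test was run on these sums, since 3 pools against 3 cannot give an exact permutation p under 0.10.

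**Figure D4:**
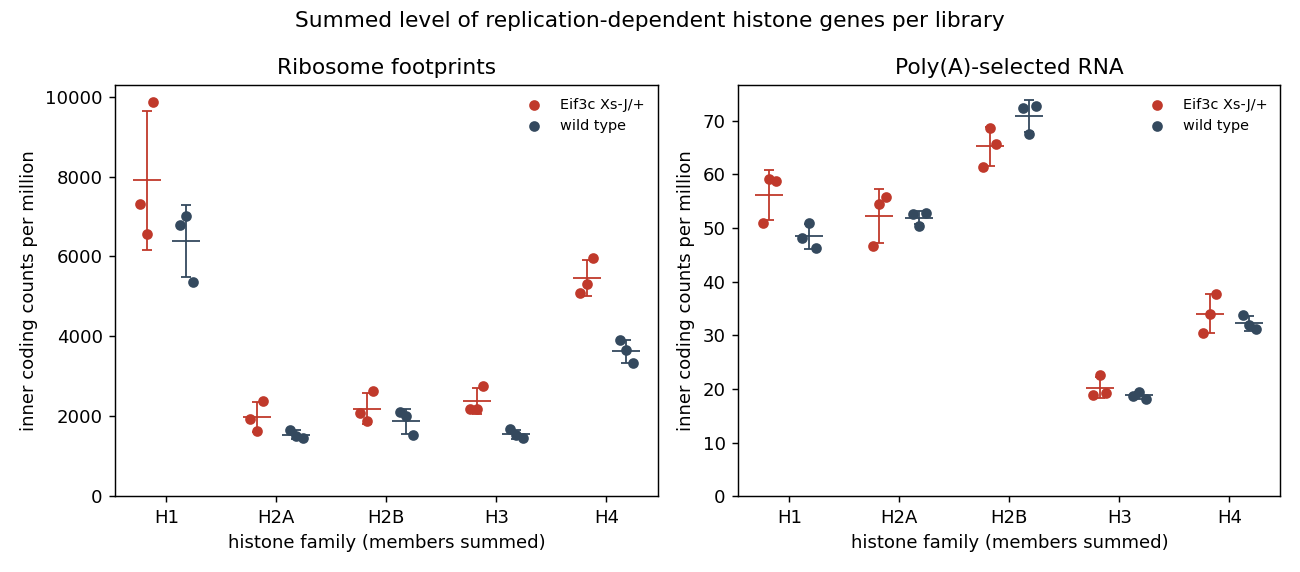
Summed inner coding footprints and RNA of each histone family in CPM on linear axes, with a point per pool and mean ± SD, mutant left of wild type. The H3 and H4 footprint sums are separated between genotypes, while the RNA sums of the 56 genes, 228 ± 17.2 CPM in mutants and 222 ± 2.91 CPM in wild type, overlap.

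The captured poly(A) RNA of the histone genes showed no call. Of the 56 members 41 had enough RNA to be tested, and the 15 others had 9 to 64 RNA counts over all 6 libraries. None of the 41 passed with edgeR, against 0.388% of all genes tested. At an unadjusted p under 0.05, 3 of the 41 passed (7.32%), against 17.5% of all genes. DESeq2 called 1 of them and limma-voom 0. The gene called by DESeq2 was Hist3h2ba, with 36.9, 39.4 and 36.5 RNA CPM in mutants and 47.7, 44.6 and 51.4 CPM in wild type (log2 −0.35 ± 0.09, edgeR adjusted p = 0.0746, DESeq2 adjusted p = 0.0471). Its groups did not overlap, and its adjusted p was 0.0172 to 0.298 over the alternatives, with edgeR's 0.0172 obtained without mutant pool 2 and 0.0428 without the filter. The mutant RNA pools were above all wild-type pools for 9 of the 56 members, among which are the 15 with too few counts to be tested. Over all genes tested, which leave out genes of such low counts, this held for 11.2%. The RNA change was above 0 for 33 of the 41 members tested and below 0 for 8. Their median log2 change was 0.19, against 0.01 over all genes tested, of which 53.2% were above 0. The summed RNA was 208, 239 and 237 CPM in mutants and 226, 220 and 221 CPM in wild type, which overlap (log2 0.04). Hist3h2ba, which was lower in mutants, held 37.6 CPM of the mutant and 47.9 CPM of the wild-type mean sum.

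Translational efficiency, here the change in footprints relative to that in captured poly(A) RNA, was tested as a genotype-by-assay term fitted to all 12 libraries. Since histone mRNAs mostly lack a poly(A) tail, the test does not cover the mRNA that was not captured. The 56 members tested include the 15 with too few RNA counts for the RNA test (9 to 64 over the 6 RNA libraries). None of the 56 members passed with edgeR and 9 did at an unadjusted p under 0.05 (16.1%, against 9.84% of all genes); DESeq2 and limma-voom also called 0. The median log2 change over members was 0.26, and 0% of all genes passed. That median was 0.06 with a correction for GC content and 0.13 without mutant pool 3. Footprint and RNA libraries of a pool come from the same cells, and with the pool as a replicate block 1 member rose, against 0.512% of all genes. This was Hist1h4j, with 1.17 ± 0.25 (edgeR adjusted p = 0.0433), against 1.21 ± 0.30 and an adjusted p of 0.332 without the block. Its RNA counts were 22, 21 and 14 in the mutant pools and 12, 27 and 12 in the wild-type pools, which sets the precision of the ratio.

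Reads around the start codon moved differently from those inside the coding sequence. The ratio of 5′ UTR to inner coding footprints fell for 18 of the 44 members with enough counts in both regions and rose for 2 (edgeR, region by genotype). Over all genes tested 2.08% fell and 3.65% rose. All 8 H3 genes tested fell, as did 5 of 9 H4 genes, 3 H2A, 1 H2B and 1 H1 gene. The 5′ UTRs of the 45 members that have them are short, with a median of 37 bases, and reads crossing the start were counted in both regions. In the median member 99.2% of mutant and 99.3% of wild-type 5′ UTR counts also lay in the coding sequence, against 22.3% in the median gene. The 5′ UTR counts are thus mostly reads over the start codon, and the inner counts of this ratio are the ones used for the footprint comparison above. The regions also differ in how much of their sequence is found in no other gene. For Hist2h3b this held for 2.11% of inner 29-base windows and 100% of those at the coding ends. The shares were 3.44% and 71.7% for Hist1h2bc, but 14.0% and 4.55% for Hist1h2af. These ratios cannot be read as ribosome densities along a single mRNA, and the part of shared sequence in them was not tested.

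Hist2h3b had 3.35, 2.30 and 3.53 5′ UTR counts per inner coding count in mutants and 6.52, 8.77 and 7.04 in wild type (log2 −1.51 ± 0.14, edgeR adjusted p = 3.17e-05). Hist1h4i had 0.506, 0.605 and 0.638 in mutants and 1.18, 1.04 and 1.35 in wild type (log2 −1.25 ± 0.15, edgeR adjusted p = 0.000712). Hist1h3d had 1.63, 1.59 and 1.55 in mutants and 2.50, 2.41 and 2.69 in wild type (log2 −0.89 ± 0.12, edgeR adjusted p = 0.00114). In each of these genes every mutant pool was below every wild-type pool. Hist1h3c (−0.87) and Hist1h4b (−1.04) fell by like amounts, and these 5 genes kept their call under all 10 alternatives. The others that fell were Hist1h4d (−1.17), Hist1h3b (−0.78), Hist1h3e (−0.77), Hist1h2bp (−0.75), Hist1h3g (−0.73), Hist1h4h (−0.71), Hist4h4 (−0.67), Hist1h3f and Hist2h2ab (−0.65 each), Hist2h2ac and Hist1h2ae (−0.63 each), and Hist1h3a and Hist1h1c (−0.58 each).

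The genes that rose were the H2B gene Hist1h2bc and the H2A gene Hist1h2af. Hist1h2bc had 28.7, 24.8 and 28.9 5′ UTR counts per inner count in mutants and 7.19, 13.4 and 14.6 in wild type (log2 1.09 ± 0.20, edgeR adjusted p = 0.00609). Hist1h2af changed by 1.25 ± 0.31 (edgeR adjusted p = 0.0276) on only 48 mutant and 40 wild-type 5′ UTR counts. With the library sizes of the coding sequence in place of those of each region, the median of all genes shifted by 0.22, and 8 members fell and 5 rose. Without wild-type pool 1, 5 fell and 0 rose, and without wild-type pool 3, 11 fell. The number that rose was 1 without mutant pool 1 or 3 and 5 without mutant pool 2.

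The trimmed coding ends, the first 15 and last 5 codons, relative to the inner coding sequence share the inner counts, and many of the reads over the start, with the 5′ UTR ratio, so the 2 ratios are not independent. The limit on shared sequence given for the 5′ UTR ratio holds here too. The ratio of ends fell for 13 of the 50 members tested and rose for 4, against 3.13% and 6.08% of all genes. They fell for 7 of 8 H3 genes, 5 of 10 H4 genes and the H2B gene Hist1h2bp, and the largest fall was that of Hist2h3b (4.53, 2.95 and 4.59 ends counts per inner count in mutants, 8.45, 10.7 and 9.33 in wild type; log2 −1.42 ± 0.17, edgeR adjusted p = 3.75e-05). The other H3 genes that fell were Hist1h3d (−0.83), Hist1h3c (−0.81), Hist1h3b (−0.75), Hist1h3e and Hist1h3g (−0.69 each) and Hist1h3f (−0.58). The H4 genes were Hist1h4i (−1.20), Hist1h4d and Hist1h4b (−0.81 each), Hist1h4h (−0.60) and Hist4h4 (−0.54), and the value of Hist1h2bp was −0.68. Those that rose were Hist1h2bc (1.14), Hist1h2bk (0.63), Hist1h2ak (0.51) and Hist1h2af (1.32). Their calls held in 10, 5, 2 and 6 of the 10 alternatives, in that order. For Hist1h2af the ends counts per inner count equalled the 5′ UTR counts per inner count in every pool. Its rise is thus the one given above, on 48 mutant and 40 wild-type counts. With coding library sizes, which shifted the median of all genes by 0.15, 6 fell and 6 rose. Without wild-type pools 1 and 3 in turn, 4 and 7 fell, and 1 rose without mutant pool 1, mutant pool 3 or wild-type pool 1; 2 rose without wild-type pool 2.

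**Figure D5:**
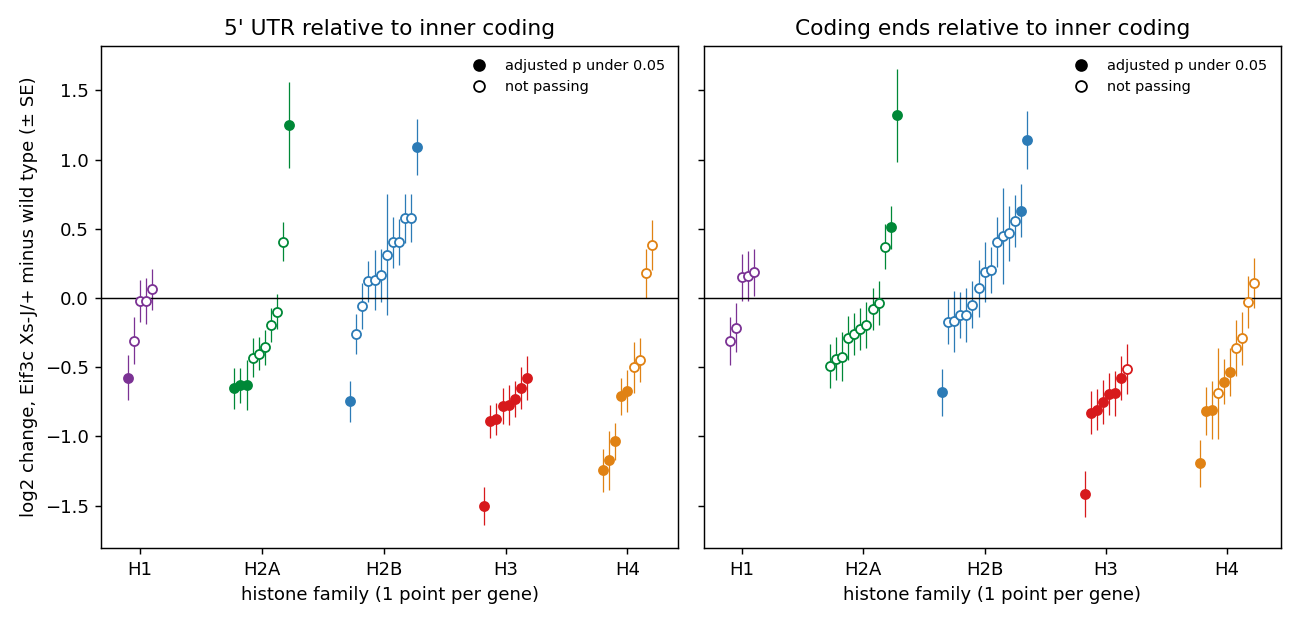
Log2 change of the ratio of 5′ UTR footprints (left) and of coding-end footprints (right) to inner coding footprints, Eif3c Xs-J/+ minus wild type, with SE, 1 point per histone gene and filled where the adjusted p was under 0.05. H3 genes lie below 0 in both panels, while H2B genes spread to both sides of it; the panels share their inner counts and many reads over the start.

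As sums, the H3 coding ends held 3602 ± 531 CPM in mutants and 3488 ± 320 CPM in wild type and overlapped (log2 0.05), where the inner H3 sum differed by 0.61. For H2B the ends held 6119 ± 1367 CPM in mutants and 3980 ± 213 CPM in wild type (SD, n = 3) and were separated (log2 0.62), where the inner sum differed by 0.23. Sums over the whole coding sequence differed by 0.25 for H3, 0.46 for H4, 0.51 for H2B, 0.40 for H2A and 0.35 for H1.

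Copies of these genes share much of their sequence, so the count of a single copy is uncertain. The median member had 19.9% of its inner 29-base windows in no other gene. The 13 members with at least 50% such windows had a median footprint change of log2 0.28 (−0.08 to 1.16) and included 1 gene that rose, and the 43 with fewer had a median of 0.47 (−0.05 to 1.46) and included 10. Over the 56 members Spearman's rho between the share of such windows and the change was −0.07, which pools families that differ. The highest share in an H3 gene was 24.3% (Hist1h3a). In H4, Hist4h4 (98.2%) and Hist2h4 (84.3%) changed by 0.35 and 0.39. Hist1h4k (13.1%), Hist1h4b (22.1%) and Hist1h4j (25.7%) changed by 1.46, 1.08 and 1.16, but Hist1h4a (13.9%) by 0.39. The part of shared sequence in these changes was not tested. Members were also rich in G and C, with a median of 63.9% GC in the coding sequence against 53.3% over all genes tested, and all 56 were above that gene median. The rho between GC and the change was 0.38, and the rho between GC and the share of unique windows was −0.64. These correlations describe genes that share libraries and base composition. The 4683 other genes in the same GC range had a median footprint change of 0.12. The part of GC content in the members' change was not tested beyond the correction that left 6 calls.

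Genes that act on histone mRNA had no edgeR call in footprints or RNA, where few genes of any kind were called. Of 33 genes for the 3′ processing, transcription and decay of histone mRNA, none passed with edgeR. Over all genes tested 0.223% rose and 0.0298% fell in footprints, and 0.388% passed in RNA. At an unadjusted p under 0.05 there were 5 in footprints (2 higher, 3 lower in mutants) and 7 in RNA, all higher. Over all genes that share was 22.8% in footprints and 17.5% in RNA. DESeq2 called 0 and 1 of the 33, limma-voom none, and their median log2 changes were −0.01 in footprints and 0.05 in RNA. Slbp had 123 ± 13.8 CPM in mutant and 123 ± 8.45 CPM in wild-type footprints (log2 0.01 ± 0.09, edgeR adjusted p = 0.979; the sign flips between alternatives), and its RNA changed by 0.26. Npat and Casp8ap2, which act at the histone gene clusters, changed by −0.11 and −0.18 in footprints. The U7 particle subunits Lsm10 and Lsm11 changed by −0.41 and −0.18, the zinc finger protein Zfp473 by −0.14 and the exonuclease Eri1 by 0.03, none passing. Among 11 replication-independent variants tested in footprints none passed with edgeR or limma-voom, and DESeq2 called 2. At an unadjusted p under 0.05, 6 of the 11 passed (4 higher, 2 lower in mutants), beside 31 of the 56 histone members and 22.8% of all genes. H2afx had 513 ± 79.8 CPM in mutants and 349 ± 38.3 CPM in wild type (log2 0.56 ± 0.12, edgeR adjusted p = 0.0790). H3f3a changed by −0.53, H3f3b by 0.24 and H1f0 by 0.10, and H2afz was too low in footprints to be tested. Of 24 histone chaperone and import genes none passed with edgeR or limma-voom in footprints, where 8 had an unadjusted p under 0.05 (7 higher, 1 lower in mutants), DESeq2 called 2 and the median was 0.07. In RNA none of the 24 passed with edgeR or limma-voom, 9 had an unadjusted p under 0.05, all higher in mutants, DESeq2 called 1 and the median was 0.15.

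Of 45 DNA replication genes, none passed in either assay with edgeR, while 20 in footprints and 29 in RNA had an unadjusted p under 0.05, all higher in mutants, against 22.8% and 17.5% of all genes in either direction. DESeq2 called 7 in footprints and 5 in RNA, and limma-voom 1 in each. Of the 45, 42 had a footprint change above 0 and all 45 an RNA change above 0, with medians of 0.20 and 0.23. Their summed footprints were 7615, 6262 and 7390 CPM in mutants and 6474, 5988 and 5842 CPM in wild type. Mutant pools 1 and 3 were above all wild-type pools, and mutant pool 2 lay among them. Their part in the histone values was not tested.

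Markers of other cells were also present. The 19 erythroid markers held 14622, 9284 and 8449 footprint CPM in mutants and 9072, 9346 and 10295 CPM in wild type, so that mutant pool 1 stood apart. Of these, the globin gene Hba-a2 rose in footprints (log2 0.94 ± 0.15, edgeR adjusted p = 0.0470) and Hbb-bt in RNA (1.23 ± 0.20, edgeR adjusted p = 0.0360). DESeq2 called 5 erythroid markers in footprints and 0 in RNA, and limma-voom 1 in each. The change was above 0 for 15 of the 19 in footprints (median 0.22) and for 19 of 19 in RNA (median 0.48). The summed footprints of 16 mesenchyme and somite markers were 1296 to 2050 CPM in mutants and 1135 to 1328 CPM in wild type, and those of 15 endothelial markers 543 to 985 CPM and 578 to 684 CPM in mutants and wild type. The 20 neural tube markers summed to 15368 to 16276 CPM in mutant footprints and 16177 to 16688 CPM in wild type, with no edgeR call and a median of 0.01. At an unadjusted p under 0.05, 10 passed (4 higher, 6 lower in mutants), against 22.8% of all genes, and DESeq2 called 4 and limma-voom 2. Their RNA summed to 9250, 9821 and 10283 CPM in mutants and 10764, 10896 and 10443 CPM in wild type. Every mutant RNA pool was thus below every wild-type one. The RNA median was −0.08, and 1 was higher and 7 lower at an unadjusted p under 0.05, against 17.5% of all genes. In RNA edgeR and limma-voom called none and DESeq2 called 3. In footprints edgeR called none of the endothelial or of the mesenchyme and somite markers, while 4 and 5 had an unadjusted p under 0.05, all higher in mutants, and DESeq2 called 1 and 2. Their footprint changes were above 0 for 15 of 15 endothelial markers (median 0.17) and for 15 of 16 mesenchyme and somite markers (median 0.35, beside 0.38 for the histone genes). The part of these markers in the histone values was not tested.

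The floor of 100 counts fell in a wide gap. The members just above it were Hist2h2be with 650 wild-type counts, Hist1h2ba with 748 and Hist1h2ah with 1360. The candidates just under it were Hist1h2bq with 11, Hist1h2br with 6 and Hist2h3c1 with 4. The remaining 7 had 0 to 3 counts, and 0 of the inner windows of Hist1h4m and Hist1h4n are found in no other gene. Hist2h2be had 4.37, 5.16 and 6.34 CPM in mutants and 7.28, 5.52 and 3.86 CPM in wild type, and Hist1h2ba 7.67, 8.27 and 5.74 CPM in mutants and 7.98, 8.89 and 3.83 CPM in wild type. In both, the genotypes overlapped.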

How the data were processed

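Ribosome footprints and poly(A) RNA were sequenced from 3 pools per genotype, giving 12 libraries in 96 lane samples. The authors deposited raw read counts per transcript and region for every lane; per the submitters' processing notes cutadapt, STAR and bedtools were used with the mm10 genome, while neither their versions nor the handling of multi-mapping reads is stated there. Per the labels' protocols, cells were lysed in cycloheximide, digested with RNase I, and footprints and RNA fragments were cut from a gel. Whether reads that fit several copies were dropped is thus not known. Copies with no inner coding window of their own had 0 to 4 wild-type inner footprint counts, with 0 in Hist1h4m, and the count of a single copy is uncertain.

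Transcripts were named by GENCODE vM21 and the transcript of highest count kept per gene. Lanes were summed per library, leaving out 4 lanes of mutant pool 1 footprints that held counts on 2 to 3 of 20 chromosomes. Counts with no gene name made up 0.304%. Tests used edgeR 4.0.16 in R 4.3.3 (quasi-likelihood, TMM, filterByExpr with a minimum count of 10), with limma 3.58.1 and DESeq2 1.42.0 as alternatives. The threshold was a Benjamini-Hochberg adjusted p under 0.05 over all genes tested, and SE is the log2 change divided by the square root of F. The edgeR tests were also run on simulated counts drawn with no pool effect. That run does not cover the correlation between libraries of a pool. Tables and figures were made in Python 3.11.15 with pandas 2.3.3 and Matplotlib 3.10.9. Biological coefficients of variation were 9.97% in footprints and 8.16% in RNA. Both libraries of a pool share their cells, and their deviations correlated at 0.27 to 0.57 in mutants and 0.21 to 0.32 in wild type. The members and gene lists were chosen with earlier results of these data known. Named were members passing any test, the 3 highest per family, those beside the count floor, listed genes passing a test and a list of 12 histone regulators and variants; Hist1h4a, Hist1h4f and Hist1h2bg were added after their values were seen.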

Additional observations from a re-analysis of the deposited data

Results flagged for a closer look

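Of the candidates under the count floor, Hist1h4m and Hist1h4n had 0 wild-type inner coding counts (0 and 1 in mutants) yet many footprints over their whole transcripts, which no comparison above uses. Hist1h4m held 8288 counts summed over the mutant pools (2247, 2306 and 3735) and 24684 over the wild-type pools (14000, 3759 and 6925), a log2 difference in CPM of −0.07. Hist1h4n held 11782 counts in the mutant pools (2744, 3620 and 5418) and 35208 in the wild-type pools (19814, 6062 and 9332), a log2 difference of −0.11. None of their inner 29-base windows is found in no other gene, while 26 windows of the coding ends of Hist1h4m and 17 of Hist1h4n are. Their start regions are shown with the start codon in capitals.
Hist1h4m: tttgtcttcgtcATGtctggtcgtggcaaa
Hist1h4n: tttgtcttcatcATGtctggtcgtggcaaa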

How the results depend on the processing

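Footprints rose for 11 members; the count was 27 with DESeq2, 17 with limma-voom, 20 with no filter, 6 with GC offsets, 5 with all lanes and 4 to 29 leaving out a pool. RNA fell for 0 members, for 1 with DESeq2 or no filter, and for 0 to 1 leaving out a pool. Translational efficiency rose for 0 members and for 1 with the replicate block. The 5′ UTR ratio rose for 2 members, for 7 with no filter, 5 with coding library sizes and 0 to 5 leaving out a pool, and fell for 18, for 8 with coding library sizes and 5 to 20 leaving out a pool. The ratio of coding ends rose for 4 members, for 2 with DESeq2 and 1 to 4 leaving out a pool, and fell for 13, for 6 with coding library sizes and 4 to 15 leaving out a pool. The cause of these shifts was not tested.

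What a pool number shared by mutant and wild type means is not stated, and the numbers were not taken to pair the genotypes. Deviations of same-numbered pools correlated at −0.09, −0.10 and −0.04 in footprints and 0.11, 0.06 and 0.08 in RNA. In RNA each pool correlated best with its own number, which is a hint from the data, and in footprints this did not hold. With the replicate block footprints rose for 12 members and RNA changed for 0.

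Among the genes named by rule, 20 values under an alternative had the sign reversed, each for a log2 change that had not passed. In footprints, leaving out a pool gave Hist1h2ak −0.058 to 0.264, Hist3h2ba −0.078 to 0.188, Eri1 −0.030 to 0.105, Slbp −0.094 to 0.060 and Zfp473 −0.395 to 0.103. In RNA it gave H2afz −0.820 to 0.048, H3f3a −0.028 to 0.160, H3f3b −0.016 to 0.031 and Zfp473 −0.229 to 0.095. With GC offsets the footprint changes of Hist1h2ak, Hist3h2ba and Npat were −0.147, −0.074 and 0.025. With all lanes that of Lsm11 was 0.126 and that of Slbp −0.0060, and with no filter Slbp was at −0.0088. Over the 56 members, 6 footprint changes had the other sign with the whole coding sequence, 7 with GC offsets, 1 with limma-voom or the replicate block, and 4 to 6 leaving out a pool; none of these had passed. RNA counts of 7193806 to 13126019 per library limit the ratio of footprints to RNA for genes with few counts.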
